A study of Mus musculus with 9 samples.

Results

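Tnfrsf21, which encodes the death domain receptor DR6, stood at 92.2 ± 19.0 CPM (SD, n = 4) in Rfx2-/- testis and at 7.49 ± 1.45 CPM (n = 5) in wild-type (WT) testis. CPM are read counts scaled to the library total and its TMM factor. Of the 7 death receptor, caspase and BCL2 family genes set beside it that had enough reads for a test, 0 passed an adjusted p of 0.05, against 3.48% of all genes tested that passed as higher and 7.31% as lower. The set has 9 genes of the 23074 in the count table. They were matched by gene ID to the symbols Tnfrsf21, Fas, Tnfrsf1a, Tnfrsf10b, Casp8, Bax, Bak1, Bcl2l1 and Bcl2l11. Tnfrsf21 was chosen on its higher level in these same Rfx2-/- libraries, so its values are a description and carry no test. The other genes were listed for their function, with earlier results of these data known. Of the 9 genes, 8 had enough reads to be among the 15613 tested, and Fas did not.

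RNA was sequenced from whole testes, freed of their capsule, of 9 mice aged 29 to 30 days (P30). Of these, 5 were WT and 4 were Rfx2-/-, and each gave 1 library. WT and Rfx2-/- mice shared a mixed C57BL/6, 129/Sv and FVB/N background. RFX2 is a transcription factor that binds the X-box motif and is made in spermatocytes and early round spermatids. The knockout allele was made in ES cells of strain 129/Sv and lost 1 exon, which encodes most of the DNA binding domain, through a Cre transgene driven by the promoter of Actb in all tissues. The study's methods describe the mixed background line as still carrying the neomycin cassette of the targeting vector. The deletion is thus not limited to germ cells.

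Apoptosis can be started from outside the cell, when a ligand binds a death receptor of the TNF receptor superfamily, or from inside, through the BCL2 family at the mitochondrion. The death domain in the tail of such a receptor gathers adaptors, of which FADD brings in caspase 8. BAX and BAK1 open the outer mitochondrial membrane, prosurvival proteins such as BCL-XL (Bcl2l1) hold them back, and BH3-only proteins such as BIM (Bcl2l11) release them. In the testis, germ cells die by apoptosis in the first wave of spermatogenesis, and loss of Bax or overexpression of prosurvival BCL2 proteins disturbs spermatogenesis. The study stained testis sections of both genotypes by TUNEL, which marks apoptotic cells. It saw no change in how many cells were stained or where. Such staining and the RNA levels given here are unlike measures. DR6 is best known from neurons and lymphocytes and is one of the less studied receptors with a death domain.

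The promoters of the receptor with the higher level and of Ngfr, the receptor with a death domain that stood lowest in Rfx2-/- testis relative to WT, are shown because they lie at the start sites of the genes that moved apart most in this family. Both run 5′ to 3′ on the strand of the gene, from 250 bases before the start site to 50 bases after it, from RefSeq (GRCm38.p6). The Tnfrsf21 window lies at chr17:43016305-43016604 on the plus strand and the Ngfr window at chr11:95587649-95587948 on the minus strand. Letters in capitals would mark a motif, and neither window held one.
Tnfrsf21: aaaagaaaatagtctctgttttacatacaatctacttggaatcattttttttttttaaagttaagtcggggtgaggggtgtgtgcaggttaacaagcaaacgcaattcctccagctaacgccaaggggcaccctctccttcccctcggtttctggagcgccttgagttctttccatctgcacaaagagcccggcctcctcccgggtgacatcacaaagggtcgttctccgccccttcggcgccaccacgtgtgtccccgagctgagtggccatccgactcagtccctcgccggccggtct
Ngfr: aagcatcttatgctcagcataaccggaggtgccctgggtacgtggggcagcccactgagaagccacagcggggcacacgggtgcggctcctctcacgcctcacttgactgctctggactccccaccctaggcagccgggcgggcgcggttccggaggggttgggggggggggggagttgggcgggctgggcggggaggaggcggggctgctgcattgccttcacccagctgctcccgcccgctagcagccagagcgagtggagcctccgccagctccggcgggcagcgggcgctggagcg

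Windows were found for 8 of the 9 genes, all but Tnfrsf10b, with 11 windows in total because some genes have more than 1 start site. The motifs searched on both strands were the X-box, GTNGCCNNNGNAAC, its half-site GTTGCC, and the CRE half-site TGACG, bound by CREB and CREM. The letters of the X-box half-site can also lie within the X-box. No window of the 8 genes, of Ngfr or of Edar held any of these letters. Among all 32851 RefSeq promoter windows of the same length, the X-box was present in 0.825%, its half-site in 12.5% and the CRE half-site in 20.8%. The search covers these windows only and would miss a site that departs from the fixed letters. The study scanned wider promoter regions with weight matrices and mapped RFX2 binding by ChIP-seq, and neither was set beside these windows.

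Rfx2 itself read 471 to 623 CPM in WT and 61.5 to 199 CPM in the Rfx2-/- libraries, which did not overlap, although reads from the remaining exons were still counted. Total counts lay between 13574764 and 15193330 in 8 libraries, where a count of 3 stood for 0.196 to 0.234 CPM. Rfx2-/- replicate 1 held 28800855 counts, and a count of 3 stood there for 0.0995 CPM. Markers of Sertoli cells, Leydig cells, spermatocytes and spermatids were all present in the libraries. Of the 15613 genes tested, 0.826% passed an adjusted p of 0.01 with a change of over 2-fold in the higher direction and 3.68% in the lower. At an adjusted p of 0.05 with no fold limit these shares were 3.48% and 7.31%, from 544 higher and 1142 lower genes. With scaling by total counts there were 1178 higher and 959 lower genes, and 1393 and 1328 without Rfx2-/- replicate 1, so that the excess of lower genes turned under both. The median log2 fold change over all genes was 0.03, and 0.16 when libraries were scaled by total counts.

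Tnfrsf21 (chromosome 17, 43016555 to 43089189, GRCm38, plus strand) read 6.49, 6.19, 9.43, 8.62 and 6.70 CPM in the 5 WT libraries. In the 4 Rfx2-/- libraries it read 95.1, 65.3, 98.1 and 110.1 CPM. Every Rfx2-/- library lay above every WT library, and the lowest Rfx2-/- value was that of replicate 2. The log2 difference was 3.62 (SE 0.19), or 12.3-fold, with a 95% interval of 9.15 to 16.5-fold. The SE and the interval come from the libraries on which Tnfrsf21 was chosen and take no account of that choice. The counts behind these levels were 80 to 142 in WT and 978 to 2866 in Rfx2-/-. Over 14 other ways to scale, filter or fit these same data the log2 difference stayed between 3.55 and 3.76, which is no independent support. The choice of Tnfrsf21 went by log2 fold change among the 75 genes that were called higher, averaged 50 counts or more and had separate genotypes, where it was number 5. Gnaz, the alpha subunit of a G protein, preceded it at 3.71 and Itgax, the integrin CD11c, followed at 3.50, the last of those chosen, while Sbsn at 3.09 fell just outside. In whole testis, a change in the number of cells of a type and a change in RNA per cell cannot be told apart.

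**Figure D1:**
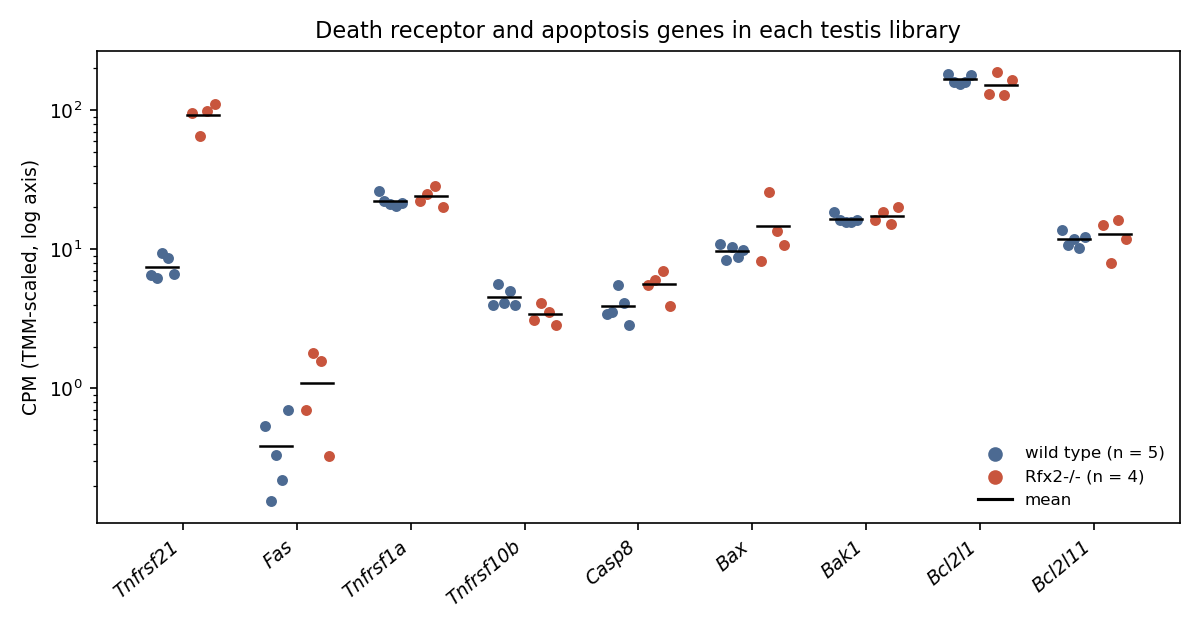
CPM (TMM-scaled, log axis) of the 9 genes in each library, with 5 WT points and 4 Rfx2-/- points per gene and a line at each mean. Tnfrsf21 is the gene whose groups are apart, at 6.19 to 9.43 CPM in WT and 65.3 to 110.1 CPM in Rfx2-/-.

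Levels of different genes were compared as CPM per kb of merged exons. In WT, Bcl2l1 had the highest level of the set, 36.4 CPM per kb, followed by Tnfrsf1a at 9.67, Bax at 7.22 and Bak1 at 6.91. Tnfrsf21 came next at 2.06 CPM per kb, then Bcl2l11 at 1.71, Tnfrsf10b at 1.43, Casp8 at 1.35 and Fas at 0.217. The per-library ranges of Bax and Bak1 overlapped in WT, as did those of each neighbouring pair from Tnfrsf21 down to Casp8. In Rfx2-/-, Tnfrsf21 moved to the second place, at 25.4 CPM per kb, below Bcl2l1 at 33.4 CPM per kb. Its range, 18.01 to 30.36 CPM per kb, overlapped that of Bcl2l1, 28.0 to 41.0 CPM per kb, as well as that of Bax, the next gene, at 11.0 CPM per kb with a range of 6.13 to 19.4 CPM per kb. In Rfx2-/- replicate 2 Bax stood above Tnfrsf21. The range of Tnfrsf1a, 8.69 to 12.4 CPM per kb, lay below that of Tnfrsf21.

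The list of receptors with a death domain held Tnfrsf21, Fas, Tnfrsf1a, Tnfrsf10b, Tnfrsf25, Eda2r, Edar and Ngfr. Eda2r was listed with them although it has no death domain. It read 0.0159 to 0.162 CPM per kb in WT and 0.125 to 0.213 CPM per kb in Rfx2-/-, and the sums below include it. Tnfrsf21 made up 6.62% to 10.9% of the summed CPM per kb of the list in WT and 51.8% to 68.4% in Rfx2-/-. The other 7 receptors summed to 21.2 to 25.2 CPM per kb in WT and 14 to 18.8 CPM per kb in Rfx2-/-. In WT the highest of the 8 were Ngfr at 10.4 CPM per kb and Tnfrsf1a at 9.67 CPM per kb, whose ranges overlapped. In Rfx2-/- Ngfr was at 3.46 CPM per kb, below Tnfrsf1a at 10.4 CPM per kb.

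**Figure D2:**
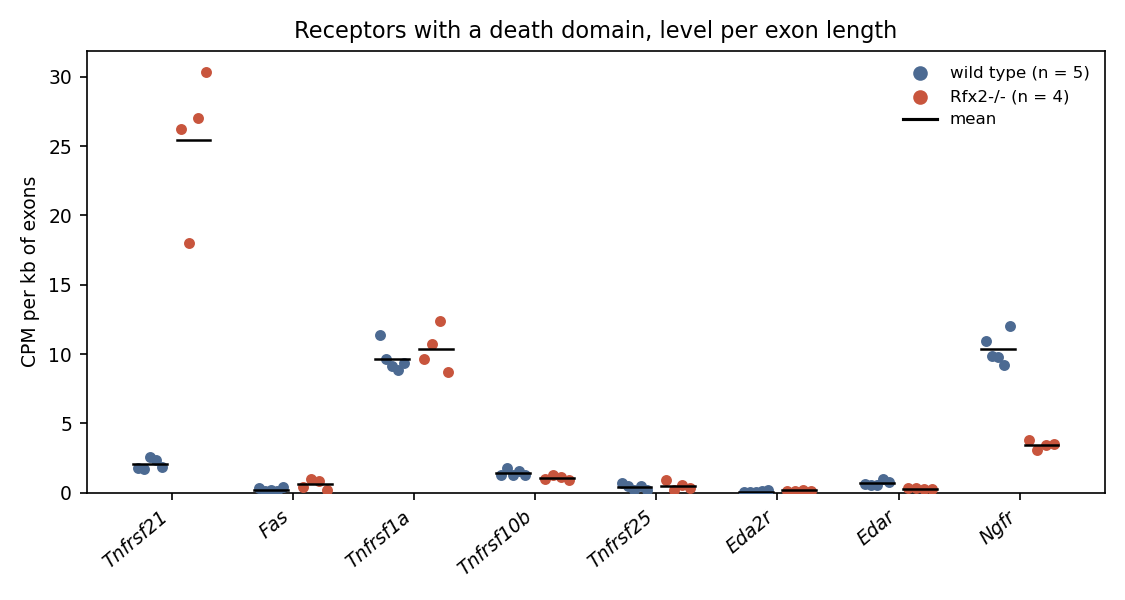
CPM per kb of merged exons of the 8 receptors of the death domain list, of which Eda2r has no death domain, with a point per library and a line at each mean. Tnfrsf21 lies at 18.01 to 30.36 CPM per kb in Rfx2-/- and Ngfr and, at a level under 1 CPM per kb, Edar have all Rfx2-/- points below all WT points.

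Fas (chromosome 19, 34290666 to 34327772), the receptor for FAS ligand, had 7, 2, 5, 3 and 9 counts in WT and 21, 27, 23 and 5 counts in Rfx2-/-. These correspond to 0.535, 0.155, 0.332, 0.221 and 0.701 CPM in WT and 0.697, 1.804, 1.57 and 0.327 CPM in Rfx2-/-. Replicates 2 and 3 of Rfx2-/- lay above all WT libraries, replicate 4 lay among them, and the groups overlapped. Fas was too low for the test, and without a filter on low counts its log2 difference was 1.48 with an adjusted p of 0.096. Without replicate 4, the lowest Rfx2-/- library, Fas passed the filter, but only through the Rfx2-/- libraries, the group where it is higher. The log2 difference of 1.77 in that fit is therefore a description and carries no test. Within Rfx2-/-, replicates 2 and 4, with like total counts, had 27 and 5 counts, and spread between libraries and depth were not separated.

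Tnfrsf1a (chromosome 6, 125349362 to 125362484), the main receptor for TNF, read 26.4, 22.4, 21.2, 20.4 and 21.7 CPM in WT and 22.4, 24.9, 28.7 and 20.1 CPM in Rfx2-/-. The groups overlapped along most of their range. Its fold change was 1.07, with a 95% interval of 0.861 to 1.33 and an adjusted p of 0.683. Tnfrsf10b (chromosome 14, 69767472 to 69784411), the mouse receptor for TRAIL, read 3.97, 5.65, 4.12, 5.01 and 3.97 CPM in WT and 3.09, 4.14, 3.54 and 2.88 CPM in Rfx2-/-. Only Rfx2-/- replicate 2 reached into the WT range. Its log2 fold change was -0.42 (SE 0.19), the lowest of the tested genes in the set, with a fold interval of 0.561 to 1.001 and an adjusted p of 0.182. Of the 50-base stretches of Tnfrsf10b exons, 9.74% occurred in another gene too, so that reads from them would have been discarded.

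Casp8 (chromosome 1, 58795374 to 58847503), the initiator caspase of the death receptor pathway, read 3.44, 3.56, 5.58, 4.13 and 2.88 CPM in WT and 5.51, 6.01, 6.95 and 3.92 CPM in Rfx2-/-. Replicates 2 and 3 of Rfx2-/- lay above all WT libraries, and replicates 1 and 4 lay below the highest WT library. The log2 fold change was 0.51 (SE 0.23), the fold interval ran from 1.007 to 2.01, and the adjusted p was 0.174. Over the 14 alternatives the adjusted p of Casp8 lay between 0.0665 and 0.318.

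Bax (chromosome 7, 45461697 to 45466898, minus strand), a pore-forming effector, read 10.9, 8.36, 10.4, 8.77 and 9.89 CPM in WT and 8.20, 26.0, 13.62 and 10.8 CPM in Rfx2-/-. Rfx2-/- replicate 2 stood far above all other libraries, and replicate 1 stood below all WT libraries. The log2 fold change was 0.59 (SE 0.28), with a fold interval of 0.983 to 2.32 and an adjusted p of 0.196. It was 0.16 without Rfx2-/- replicate 2 (adjusted p 0.591) and 0.83 without Rfx2-/- replicate 1 (adjusted p 0.0447), so that 1 library decided on which side of 0.05 it fell. Bax has the shortest exons of the set, 1337 bases, and Rfx2-/- replicate 2 read higher than the other 3 Rfx2-/- libraries in short genes. The 1494 tested genes within 20% of the length of Bax had a median log2 deviation of 0.63 in that library, and Bax deviated by 1.28. With a trend in length removed the log2 fold change of Bax was 0.36. In the gene annotation used here, 14.4% of the Bax exons overlapped Gm45808 on the same strand. Reads there would have been left out only if the authors' gene models held Gm45808, which was not checked.

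**Figure D3:**
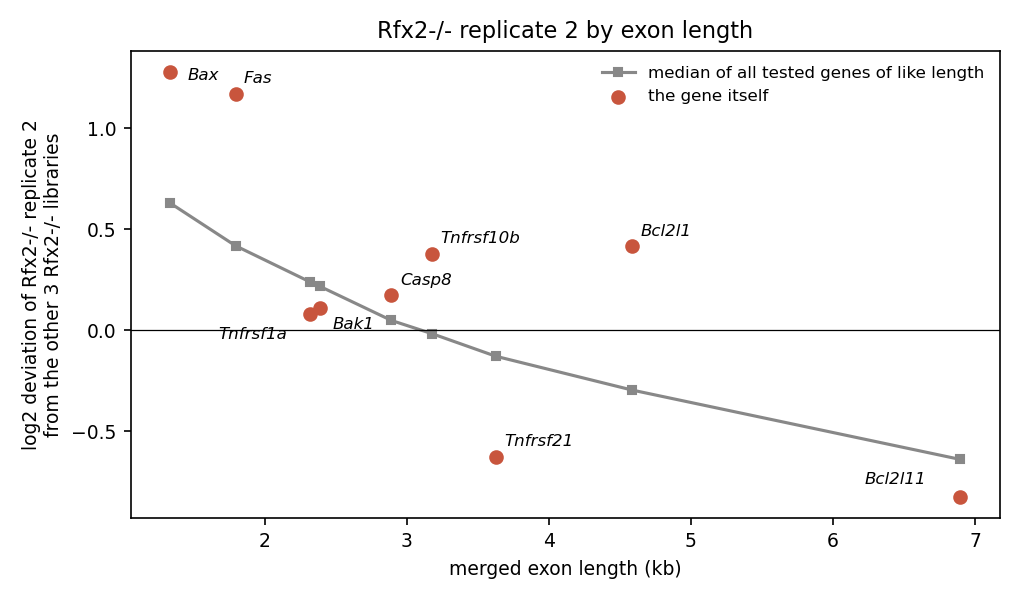
Log2 deviation of Rfx2-/- replicate 2 from the mean of the other 3 Rfx2-/- libraries (y axis) by merged exon length in kb (x axis), for each of the 9 genes (circles) and for the median of all tested genes within 20% of its length (squares and line). The medians fall from 0.63 at the length of Bax to -0.64 at the length of Bcl2l11.

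Bak1 (chromosome 17, 27019810 to 27029009, minus strand), the other effector, read 18.6, 16.3, 15.7, 15.7 and 16.2 CPM in WT and 16.3, 18.4, 15.1 and 20.2 CPM in Rfx2-/-. The groups overlapped, with the highest and the lowest value both in Rfx2-/-. Its fold change was 1.06, with an interval of 0.861 to 1.31 and an adjusted p of 0.718. Exons of Ggnbp1 on the opposite strand, listed under 2 IDs, covered 7.42% and 3.31% of the Bak1 exons, and use of strand in the counting is not stated.

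Bcl2l1 (chromosome 2, 152780668 to 152831728, minus strand), a prosurvival gene, read 180.8, 160.3, 153.8, 160.6 and 178.5 CPM in WT and 131.8, 187.8, 128.3 and 164.4 CPM in Rfx2-/-. Replicates 1 and 3 of Rfx2-/- lay below all WT libraries and replicate 2 lay above them. The log2 fold change was -0.12 (SE 0.15), with a fold interval of 0.734 to 1.15 and an adjusted p of 0.614, and it was 0.01 with scaling by total counts. Bcl2l1-length genes had a median deviation of -0.30 in Rfx2-/- replicate 2, where Bcl2l1 deviated by 0.42, in the opposite direction. The ratio of Bax to Bcl2l1, in CPM per kb, was 0.206, 0.179, 0.233, 0.187 and 0.190 in WT and 0.213, 0.475, 0.364 and 0.225 in Rfx2-/-. Its mean was 0.199 ± 0.0212 (SD, n = 5) in WT and 0.319 ± 0.124 (n = 4) in Rfx2-/-, and 0.267 without Rfx2-/- replicate 2. The ratios of replicates 1 and 4 lay within the WT range and those of replicates 2 and 3 above it.

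Bcl2l11 (chromosome 2, 128126038 to 128162547), which encodes BIM, read 13.7, 10.8, 11.9, 10.2 and 12.3 CPM in WT and 15.0, 8.02, 16.3 and 11.8 CPM in Rfx2-/-. Replicates 1 and 3 were above all WT libraries and replicate 2 below them. Its fold change was 1.09, with an interval of 0.802 to 1.48 and an adjusted p of 0.725. Bcl2l11 has the longest exons of the set, 6896 bases. Genes of like length deviated by a median of -0.64 in Rfx2-/- replicate 2, and Bcl2l11 by -0.82. The part of length in these results was not tested beyond the fit with the trend removed.

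Of the 7 tested genes other than Tnfrsf21, 0 passed an adjusted p of 0.05 by edgeR's quasi-likelihood test with Benjamini-Hochberg adjustment, and 0 by DESeq2. Over all genes, DESeq2 called 895 higher and 1552 lower of 17802 at an adjusted p of 0.05. At an unadjusted p under 0.05 there was 1 of the 7 by edgeR, Casp8, and 2 by DESeq2, Casp8 and Bax. The share of all genes at an unadjusted p under 0.05 was not counted. Such counts, here and below, thus have no background beside them. The log2 fold changes of the 7 genes ran from -0.42 to 0.59 with a median of 0.10, 5 above 0 and 2 below. The groups did not overlap for 0 of the 7, while over all genes tested 6.16% had every Rfx2-/- library above every WT library and 9.70% the reverse. The upper ends of the fold intervals of the 7 genes lay at 1.001 for Tnfrsf10b to 2.32 for Bax.

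**Figure D4:**
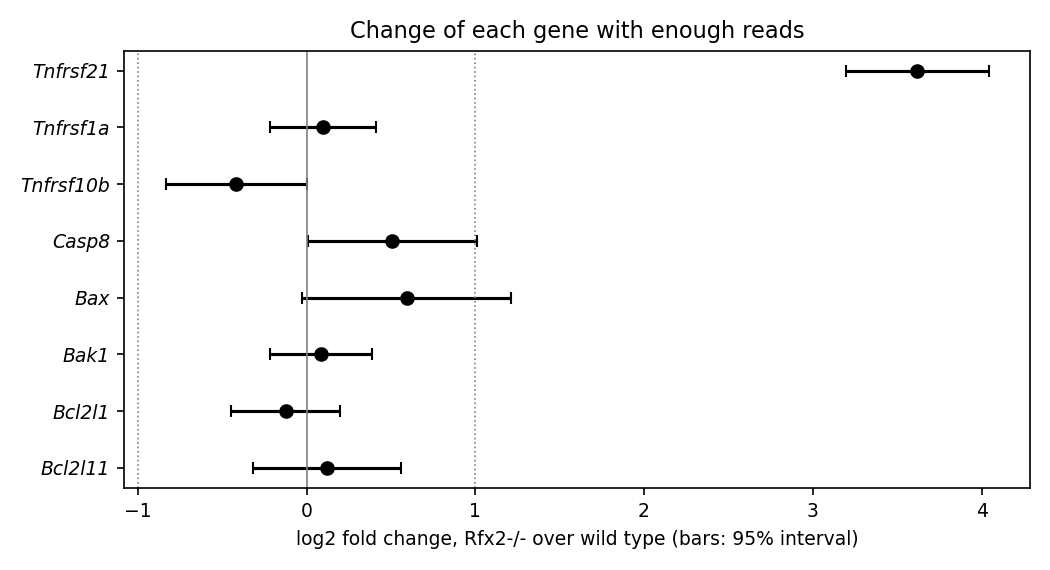
Log2 fold change, Rfx2-/- over WT, of the 8 genes with enough reads, with 95% intervals as bars and dotted lines at a 2-fold change in each direction. Tnfrsf21 lies at 3.62, described without a test, and the others between -0.42 and 0.59. The bar of Tnfrsf21 takes no account of its choice on these data.

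The wider pathway was taken as 10 lists with 120 symbols, of which 118 were in the table and 92 were tested. Leaving out Tnfrsf21, 6 of 91 rose at an adjusted p of 0.05 (6.59%, against 3.48% of all genes) and 5 fell (5.49%, against 7.31%), with 80 passing in neither direction. Past the stricter limit, 2 of 91 rose (2.20%, against 0.826%) and 4 fell (4.40%, against 3.68%). Of the 6, Tnfrsf11b, Faim2 and Casp12 were too low in WT to pass the filter on low counts without the Rfx2-/- libraries, where they were higher. Of the 5, Tnfrsf9 passed that filter through the WT libraries. The adjusted p of these genes and the shares above take no account of this. The median log2 fold change was 0.13 beside 0.03 over all genes. The number that rose ranged from 3 to 12 as single libraries were left out, with 12 without Rfx2-/- replicate 1 and 3 without WT replicates 1, 2 or 4.

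Among the receptors, Ngfr (chromosome 11, 95568818 to 95587735), the p75 neurotrophin receptor, read 37.7, 34.0, 33.7, 31.7 and 41.4 CPM in WT and 13.2, 10.6, 11.8 and 12.1 CPM in Rfx2-/-. All Rfx2-/- libraries lay below all WT libraries. Ngfr fell by 1.58 on the log2 scale (SE 0.14, adjusted p 1.0e-05), from a mean of 35.7 to 11.9 CPM. Edar, the receptor for ectodysplasin, fell from 2.58 to 1.03 CPM (log2 -1.31, adjusted p 0.00373) and Tnfrsf9, the lymphocyte receptor 4-1BB with no death domain, from 1.70 to 0.435 CPM (log2 -1.93, adjusted p 0.00459). Edar rested on 13 to 48 counts per library and Tnfrsf9 on 3 to 36. Tnfrsf11b, the decoy receptor osteoprotegerin, rose from 0.327 to 1.43 CPM (log2 2.09, adjusted p 3.74e-04) on 3 to 39 counts. Tnfrsf12a, the receptor for TWEAK, rose from 1.44 to 5.55 CPM (log2 1.92, adjusted p 0.0130), with Rfx2-/- replicates 2 and 3 at 8.28 and 8.78 CPM, replicate 1 at 3.12 CPM and replicate 4 at 2.03 CPM, inside the WT range of 1.03 to 2.33 CPM. Ltbr, the lymphotoxin beta receptor and the most abundant of the receptors with no death domain by its mean over all libraries, read 15.0 CPM in WT and 14.5 CPM in Rfx2-/- (adjusted p 0.917). In Rfx2-/- alone Tnfrsf13c, the BAFF receptor, named after its values were seen, had a higher mean, 16.99 CPM.

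Of 19 ligands listed, 6 were tested and 0 passed by edgeR or by DESeq2, with 0 at an unadjusted p under 0.05. App, the precursor of amyloid beta and a proposed ligand of DR6, was the most abundant and read 142 CPM in both genotypes, with a fold interval of 0.79 to 1.26 (adjusted p 0.984). Fasl read 1.12 CPM in WT and 1.61 CPM in Rfx2-/- (log2 0.56, adjusted p 0.227). Tnf, with 0 to 3 counts per library, and Tnfsf10, which encodes TRAIL, with 3 to 15 counts, were too low for the test.

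Among the adaptors and genes of necroptosis, Mlkl, the pore-forming protein of necroptosis, fell from 6.34 to 2.51 CPM (log2 -1.32, SE 0.21, adjusted p 0.00151) and Traf1, an adaptor of TNF receptors, from 6.47 to 3.68 CPM (log2 -0.80, adjusted p 0.0359). Traf1 lost the call with total counts and without any one of WT replicates 1, 2, 4 and 5 or Rfx2-/- replicates 3 and 4 (adjusted p 0.0558 to 0.101). Faim2, an inhibitor of FAS-mediated apoptosis and not itself an adaptor, rose from 0.574 to 1.77 CPM (log2 1.60, adjusted p 0.00152) on 5 to 46 counts. The other 13 of 16 did not pass. Fadd read 8.14 CPM in WT and 9.36 CPM in Rfx2-/- (adjusted p 0.398), Cflar, which encodes the caspase 8 inhibitor c-FLIP, 13.2 and 11.6 CPM (adjusted p 0.66), and Cyld, the most abundant of the list, 32.4 and 34.2 CPM (adjusted p 0.79).

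Among the 8 caspases tested, the 2 that rose were Casp1 (log2 1.21, adjusted p 0.0352, 1.39 to 3.22 CPM) and Casp12 (log2 1.46, adjusted p 0.0312, 0.472 to 1.33 CPM). Casp1 lost the call without any one of WT replicates 1 to 4 or Rfx2-/- replicate 3 (adjusted p 0.0528 to 0.0906), and Casp12 without any one of WT replicates 1, 2, 4 and 5 or Rfx2-/- replicate 2 (0.0507 to 0.0804). Casp1 processes interleukin 1 beta and Casp12 is related to it, and neither is an executioner of apoptosis. Casp9, the initiator of the mitochondrial pathway and the most abundant caspase, read 19.7 CPM in WT and 18.9 CPM in Rfx2-/- (adjusted p 0.783). Of the BCL2 family, 3 effectors, 4 prosurvival genes and 7 BH3-only genes were tested and 0 passed by edgeR or by DESeq2, with 1, 0 and 2 at an unadjusted p under 0.05. Bad, the most abundant BH3-only gene, read 39.9 CPM in WT and 25.5 CPM in Rfx2-/- (log2 -0.65, adjusted p 0.103), and 21.6% of its exons overlap those of Gpr137. Of the 15 apoptosome, inhibitor and nuclease genes, 0 passed by edgeR or by DESeq2, with 4 at an unadjusted p under 0.05. Diablo was the most abundant of them, at 380.4 CPM in WT and 459 CPM in Rfx2-/- (adjusted p 0.372), and 32.9% of its exons overlap Gm49027. Of 13 genes of the p53 pathway, Gadd45a, which is induced by DNA damage, rose from 2.80 to 5.34 CPM (log2 0.92, adjusted p 0.0495), and Mdm2, the ubiquitin ligase of p53, read 190.5 and 153 CPM (adjusted p 0.316). Gadd45a was at 8.35 CPM in Rfx2-/- replicate 2 and 3.15 to 6.06 CPM in the other 3. Its exons, 1223 bases, are shorter than those of Bax, and replicate 2 read higher in short genes. By edgeR with the trend in length removed, the log2 fold change was 0.71 for Gadd45a (adjusted p 0.0435) and 1.71 for Tnfrsf12a (adjusted p 0.0159). Gadd45a lost the call without any single WT library and without Rfx2-/- replicate 2 or 3 (adjusted p 0.0731 to 0.112).

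**Figure D5:**
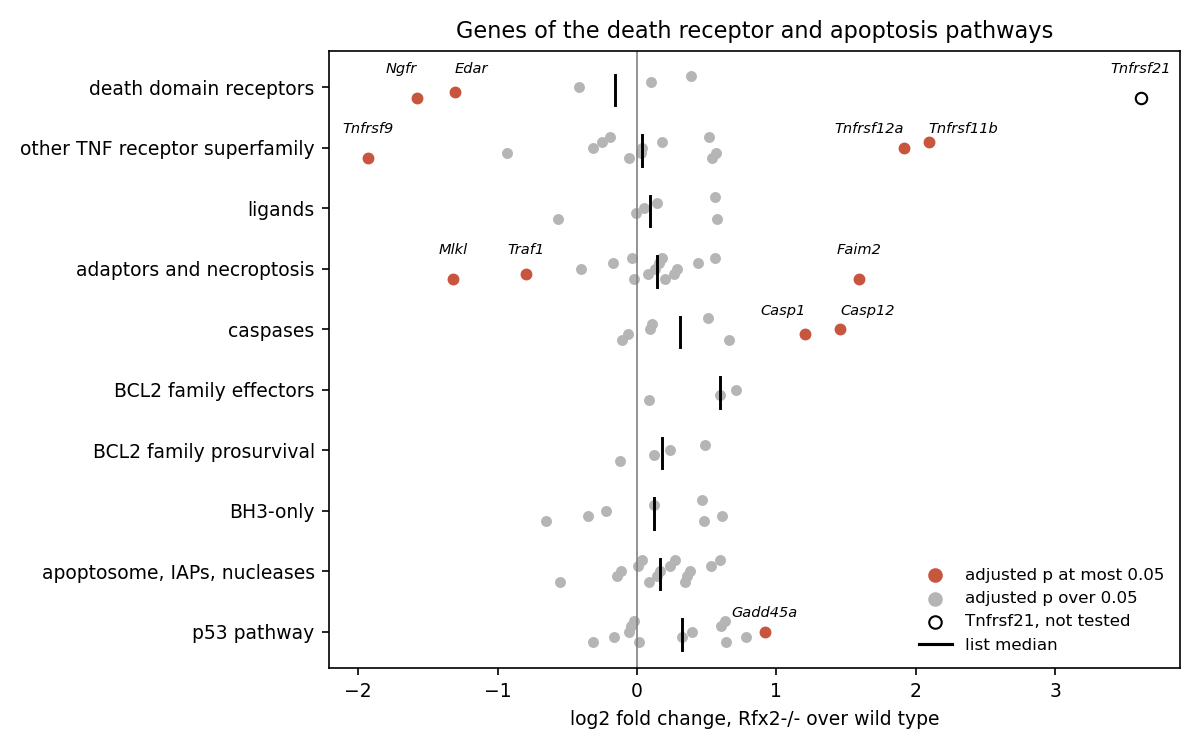
Log2 fold change, Rfx2-/- over WT, of the 92 tested genes of the 10 pathway lists, a point per gene and a line at each list's median. Coloured points passed an adjusted p of 0.05, with 6 above 0 and 5 below, and the open circle is Tnfrsf21.

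The 5 genes whose log2 CPM over the 9 libraries was most like that of Tnfrsf21 were Ptprk (Pearson r = 0.988), Sv2b (0.988), Ros1 (0.987), Gnaz (0.985) and Gpn1 (0.980). These points share their libraries and the difference between genotypes, and 43 of 15612 genes had an r over 0.95. About the means of the genotypes, the r was 0.760 for Ptprk, 0.817 for Sv2b, 0.670 for Ros1, 0.276 for Gnaz and -0.139 for Gpn1. Ptprk, a receptor tyrosine phosphatase, read 5.58 to 9.43 CPM in WT and 23.5 to 34.0 CPM in Rfx2-/-. Sv2b, a synaptic vesicle protein, read 3.36 to 5.12 CPM in WT and 13.96 to 26.5 CPM in Rfx2-/-. Ros1, a receptor tyrosine kinase, read 3.12 to 5.03 CPM in WT and 16.3 to 24.8 CPM in Rfx2-/-.

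Tnfrsf21 lies 13.7 Mb from Rfx2 on the same chromosome, and Bak1 29.7 Mb. DNA of the 129/Sv strain linked to the targeted allele and the loss of RFX2 cannot be told apart for genes at these places. Within 1 Mb of Tnfrsf21, 9 other genes were tested and 1 passed an adjusted p of 0.05, Cyp39a1, with a log2 fold change of -0.88 (adjusted p 0.0161). Over all genes tested, 3.48% passed as higher and 7.31% as lower. The log2 fold changes of the 9 genes ran from -0.88 to 1.25.

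Markers of other cell types were set beside these values, and their part in them was not tested. Of the 9 markers of elongating spermatids, 5 fell at an adjusted p of 0.05, their median log2 fold change was -0.77, and they summed to 8440 to 17960 CPM in WT and 6683 to 10710 CPM in Rfx2-/-. The study describes an arrest before elongation and places Tnp1 and Tnp2 mRNA in late round spermatids, so these sums do not measure elongating cells alone. It reported neither mRNA as reduced, with another fit and limit. By edgeR here, Tnp1 had a log2 fold change of -1.12 (adjusted p 0.0416) and Tnp2 of -0.77 (adjusted p 0.0927). Of the 10 macrophage markers 0 passed by edgeR (3 at an unadjusted p under 0.05) and 2 by DESeq2, with a median of 0.42 and sums of 342 to 472 CPM in WT and 311 to 605 CPM in Rfx2-/-. Aif1 alone gave 184 to 348 CPM of these sums in WT and had a log2 fold change of -0.34, while 8 of the 10 lay above 0, among them Lyz2 with means of 15.9 CPM in WT and 40.1 CPM in Rfx2-/- (93.9 CPM in replicate 2). Of 7 lymphocyte markers 4 were tested and 0 passed by edgeR (1 at an unadjusted p under 0.05) or by DESeq2, with sums of 10.4 to 14.8 CPM in WT and 6.81 to 13.9 CPM in Rfx2-/-, and Cd8a was at 0 in all libraries. The Sertoli cell markers summed to 1239 to 1540 CPM in WT and 1256 to 1791 CPM in Rfx2-/-, with 1 of 10, Amh, higher at an adjusted p of 0.05. Of the 6 endothelial markers, Flt1 rose by 1.32 on the log2 scale and Vwf fell by 1.85, and of the 9 spermatocyte markers Sycp2 rose by 0.74. Leydig cell, peritubular cell, spermatogonia and round spermatid markers had 0 genes past the test by edgeR, with 1, 2, 0 and 3 at an unadjusted p under 0.05 and 1, 1, 0 and 0 past it by DESeq2. Their medians were 0.19, 0.27, 0.00 and -0.05.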

How the data were processed

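The deposited table gives raw read counts per gene, without normalisation, for 9 libraries. According to their methods, the authors sequenced TruSeq libraries, aligned single reads to GRCm38, dropped reads with more than one position, and counted reads over exons, leaving out those in exons of different genes. The submitters' processing notes name CASAVA 1.8.2, STAR 2.4 and featureCounts 1.4.6. The methods give different read lengths and aligners in different places, and use of strand is not stated. Genes with near-identical copies or overlapping exons can therefore lose or exchange reads.

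Differences were tested in R 4.3.3 with edgeR 4.0.16 by quasi-likelihood (robust, TMM factors, filterByExpr), with genotype as the only term and Benjamini-Hochberg adjustment over 15613 genes. Limits were an adjusted p of 0.01 with over 2-fold, the study's values applied here to the adjusted p, and 0.05 with no fold limit. CPM values are TMM-scaled. Names and merged exon lengths came from GENCODE M21 (GRCm38), which held 96.6% of the IDs. Correlations used log2 CPM with a prior count of 2. Intervals are at 95% and come from the fit, which covers spread between libraries as well as counting error. PCR copies were not told apart by molecular identifiers. Precision rests on the spread between libraries and on the counts given beside each gene. Alternatives were DESeq2 1.42.0, its size factors, total counts, no filter, a removed length trend, and leaving out each library. The script was tested on simulated data.

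Genes named were the 9 of the set, every gene of the pathway lists at an adjusted p of 0.05 or less (at most 20), Fasl, Tnf, Tnfsf10, App, Fadd and Cflar, the most abundant gene of each list, and the 5 most like Tnfrsf21. Genes and lists were chosen with earlier results of these data known. Groups came from the genotype labels. Each library is from 1 mouse.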

Additional observations from a re-analysis of the deposited data

Results flagged for a closer look

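Of 60 groups of values examined for a sample far from the others, 4 stood out, and chance gives about 1 in 20. Bak1 in WT replicate 1 read 18.64 CPM while the other WT libraries read 15.68 to 16.25 CPM. WT replicate 3 was far from the others in 3 summed marker lists. Its Sertoli cell markers summed to 1540 CPM beside 1239 to 1279 CPM, its endothelial markers to 61.11 CPM beside 71.95 to 75 CPM, and its round spermatid markers to 839.5 CPM beside 1186 to 1275 CPM. The low endothelial sum rested on Vwf, at 21.26 CPM there and 35.37 to 39.88 CPM in the other WT libraries. Of the other endothelial markers, Kdr had its highest WT value there, 8.90 CPM, and Tek its lowest, 4.45 CPM. In the same library Tnfrsf21 read 9.43 CPM and Casp8 5.58 CPM, the highest WT values of both genes. The part of these differences in the values of Tnfrsf21 and Casp8 was not tested.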

How the results depend on the processing

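No paired analysis was possible because the labels give animal numbers but neither replicate numbers nor litters, and the numbers used here follow the order of deposition. Whether WT and Rfx2-/- mice shared litters was not tested. Alternatives were run for the 9 genes of the set, the 11 pathway genes that passed, and the counts of calls. Of these genes, those tested kept their direction, except that Bcl2l1 went from -0.12 to 0.01 with total counts, neither past a test. Genes higher at an adjusted p of 0.05 numbered 544, but 1178 with total counts, 895 with DESeq2 and 276 to 1393 when single libraries were left out, 1393 of them without Rfx2-/- replicate 1 and under 311 without WT replicates 1, 2, 4 or 5. The stricter count of 129 higher genes was 211 with DESeq2. Pathway genes that rose, without Tnfrsf21, ranged from 3 to 12. The log2 fold change of Bax ranged from 0.16 to 0.83. Ngfr, Edar, Tnfrsf9, Tnfrsf11b, Tnfrsf12a, Mlkl and Faim2 passed in 14 of 14 alternatives, Casp1 and Casp12 in 9, and Traf1 and Gadd45a in 7.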
